A study of Mus musculus with 12 samples.

Results

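Cells cannot make every amino acid they need, and the solute carrier families described here are membrane proteins that bring amino acids in, move them out or exchange one for another. The members are the 63 of 22180 measured genes whose mouse symbol begins with Slc1a, Slc3a, Slc6a, Slc7a, Slc36a, Slc38a or Slc43a and has a probe set of its own on the array. Each gene was read from its probe set with the highest mean signal, and Slc38a4 was left out by the rule. The rule itself used names and no measured difference, but members, gene lists and tests were chosen with earlier results of these data known. It took 7 genes of Slc1a, 2 of Slc3a, 19 of Slc6a, 15 of Slc7a, 4 of Slc36a, 10 of Slc38a and 3 of Slc43a, together with 3 symbols of opposite-strand genes (Slc36a1os, Slc6a19os and Slc7a6os), which are not carriers. Slc6a9 shares its probe set with another gene and was not used.

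As background, Slc1a carriers take up glutamate and aspartate or exchange small neutral amino acids. Slc3a2 is the heavy chain that brings many Slc7a light chains to the cell surface, where the pair trades large neutral, cationic or cystine substrates. Other Slc7a proteins, of the cationic carrier type, work without a heavy chain. Slc6a carriers use sodium and chloride to import neurotransmitters, taurine, creatine and neutral amino acids, Slc38a and Slc36a carriers move small neutral amino acids such as glutamine at the cell surface and at lysosomes, and Slc43a holds further carriers of large neutral amino acids. Several of these genes are known targets of Atf4, a transcription factor whose protein is made when amino acids run short.

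Expression was measured on 12 microarrays, with 2 arrays for each of 6 groups of mouse cells or tissue. Embryonic stem cells (ESC) came from embryos of day 3.5 and were kept in N2B27 medium with LIF, 3 uM CHIR99021 and 1 uM PD0325901, which inhibit GSK3 and MEK. Epiblast stem cells (EpiSC) came from day 5.75 and grew in N2B27 with 12 ng/ml FGF2, 20 ng/ml activin A and 20% serum replacement. The lines titled rsEpiSC came from day 5.75 or day 6.5 and grew in N2B27 with 20 ng/ml of a component whose name is missing from the labels and 2.5 uM of the Wnt pathway inhibitor IWR1. Epiblast, the embryonic tissue that gives rise to the body, was taken without culture at day 5.75 and at day 6.5. Every line was kept on a layer of mouse embryonic fibroblasts, so feeder RNA may be in the cultured arrays and not in the tissue. The labels give an OCT4-deltaPE-GFP reporter crossed to C57BL for all groups. The substrain number and the passage range count up from sample to sample in the rsEpiSC lines, as the substrain number does in the tissue, and they were not used. Nothing says that the replicates are separate cultures or embryos, so p-values here cover the variation among these arrays alone, which may be technical.

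The values are log2 signals, so a difference of 1 is a change of signal by a factor of 2, and differences are given with the standard error (SE) of the fit. A gene was called in a comparison where limma gave a Benjamini-Hochberg adjusted p under 0.05 over all 22180 genes. The means of naive and of post-implantation markers separated ESC from the rest: the mean of 9 naive pluripotency genes was 8.99 to 9.16 on the ESC arrays and 4.19 to 5.18 on all others, and 6 post-implantation epiblast genes averaged 5.32 to 5.77 in ESC and 6.57 to 8.70 elsewhere. Not every gene of these lists did so. The naive gene Dppa3 averaged 6.88 in ESC and 6.64 in epiblast E5.75, and the post-implantation gene Dnmt3b read 8.26 on ESC replicate 1 and 7.58 on EpiSC replicate 1. Single markers were less even: the mean of Pou5f1 was 4.36 in rsEpiSC E5.75 and 5.03 to 7.03 in the other groups, that of Nanog was 5.32 in rsEpiSC E5.75 and 6.38 to 11.02 elsewhere, that of Sox2 was 6.86 in EpiSC and 9.63 to 10.60 elsewhere, and that of the post-implantation gene Fgf5 was 3.98 in rsEpiSC E5.75, against 3.36 in ESC and 8.72 in epiblast E5.75. The 15 measured fibroblast genes averaged 5.48 to 5.85 in EpiSC, 5.18 to 5.28 in rsEpiSC E5.75, 4.76 to 4.82 in rsEpiSC E6.5, 4.33 to 4.51 in ESC and 4.49 to 4.76 in epiblast. The 5 measured neural genes averaged 6.46 to 6.69 in the rsEpiSC lines and 4.43 to 5.30 elsewhere, while 13 visceral endoderm genes stayed at 4.14 to 4.60. The 9 genes of extraembryonic ectoderm and trophoblast averaged 4.75 to 5.22 in tissue, 4.31 to 4.39 in the rsEpiSC lines, 4.53 to 4.62 in EpiSC and 4.95 to 5.41 in ESC. Of these, 3 were called lower in rsEpiSC E6.5 than in tissue (Eomes by 3.77, Elf5 by 1.33 and Tfap2c by 1.15). For Elf5 the difference was -0.54 without epiblast E6.5 replicate 1. Against epiblast E5.75, 1 was called higher and 2 lower in rsEpiSC E5.75, and 2 were called lower in EpiSC. These calls were 33.3%, 33.3% and 22.2% of the list, against 12.5%, 21.5% and 24% of all genes. The spread of signals also differed: gene signals had an interquartile range of 3.07 to 3.31 in culture and of 2.23 to 2.68 in tissue, and the median of olfactory receptor genes was 2.14 to 2.32 in culture and 2.82 to 3.01 in tissue. What part fibroblast RNA, neural, trophoblast or pluripotency genes or the narrower tissue arrays have in the differences below was not tested. In samples of many cells, a lower signal from fewer cells of a kind and one from less RNA per cell cannot be told apart.

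Of the 63 members, 32 had a group mean above 4.85, the level that 95% of 1105 olfactory receptor genes stay under in every group and that serves here as a bound for dim signal. The remaining 31 did not pass it, and their median was 3.61 to 3.80 on cultured and 3.75 to 3.96 on tissue arrays, above that of olfactory receptor genes. In Slc6a, whose members are known mainly from nerve and kidney, 15 of 19 genes stayed under the bound, with no array above 4.98. In Slc7a, 8 of 15 genes passed the bound, in Slc1a 6 of 7, in Slc38a 7 of 10, in Slc36a 2 of 4, in Slc43a 3 of 3 and in Slc3a 1 of 2. Slc3a1, the heavy chain of kidney and gut, was dim at 3.39 to 4.28. The moderated F test over the 6 groups called 20 of 63 members (31.7%), against 32% of all genes: 7 of Slc7a, 4 of Slc6a, 3 of Slc1a, 3 of Slc38a, 2 of Slc43a and 1 of Slc3a.

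**Figure D1:**
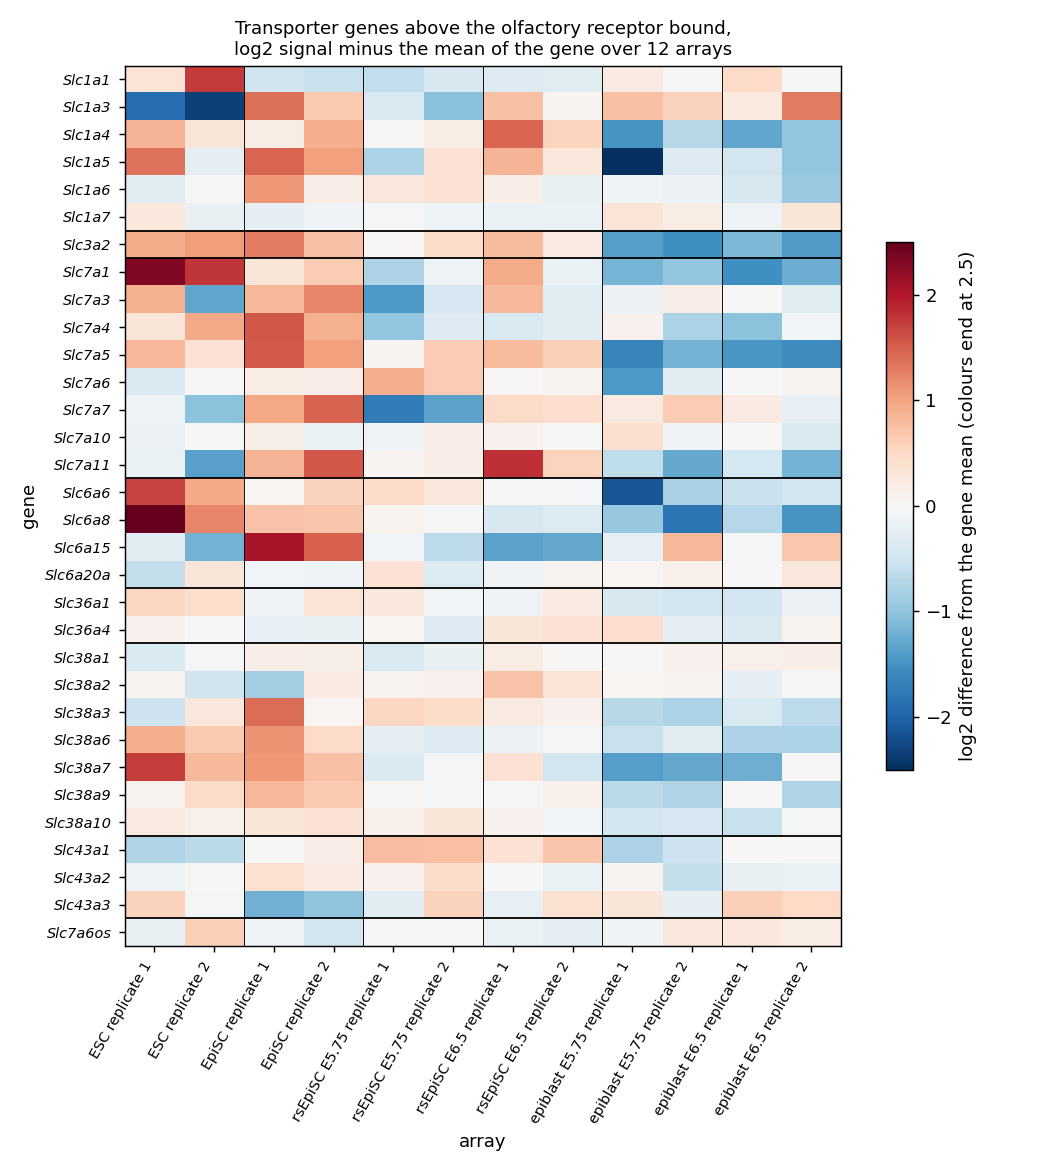
Colours show the log2 signal of each of the 32 members above the dim-signal bound (rows, by family) on each of 12 arrays (columns, by group), minus the mean of that gene over the arrays. Slc3a2 and Slc7a5 are blue on all 4 epiblast arrays and pale or red on the cultured arrays, and Slc7a7 is blue on both rsEpiSC E5.75 arrays.

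Comparing EpiSC with ESC asks how the transporters differ between a post-implantation and a pre-implantation type of stem cell. Slc1a3, a glutamate carrier best known in glia, was 3.13 ± 0.40 higher in EpiSC (limma, adjusted p = 0.000508). Slc6a15, which imports branched-chain amino acids and proline, rose by 2.50 ± 0.42 (adjusted p = 0.00318), and both the cystine importer Slc7a11 and the cationic exchanger Slc7a7 rose too. The arginine and lysine importer Slc7a1, the glutamate and cysteine importer Slc1a1 and Slc43a3, a carrier of purine bases, fell. That makes 7 of 63 members called (11.1%), against 6.29% of all genes. Of the members 4 were higher and 3 lower, and of all genes 3.6% were higher and 2.7% lower. The median difference was 0.013 over members and 0.0049 over all genes. The count was 3 when either EpiSC array was left out.

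In rsEpiSC E5.75 against EpiSC, which sets both culture regimes side by side for lines of the same embryonic day, each of the 5 called members was lower in rsEpiSC (7.94% of members; 3.87% of all genes were called, 1.56% higher and 2.31% lower). The largest drop was that of Slc7a7, by 2.77 ± 0.33 (limma, adjusted p = 0.000606). Slc6a15 fell by 2.14 ± 0.42, Slc7a4, a relative of the cationic carriers, by 1.85 ± 0.41, Slc1a3 by 1.73 ± 0.40 and Slc38a6, of the glutamine carrier family, by 1.08 ± 0.27. The median difference was -0.03 over members and 0.02 over all genes. Without EpiSC replicate 1 or without rsEpiSC E5.75 replicate 2 a single call (1), that of Slc7a7, remained, and 2 remained without rsEpiSC E5.75 replicate 1.

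Against ESC, rsEpiSC E5.75 had 6 called members (9.52%), against 10.3% of all genes (5.49% higher and 4.8% lower). Slc43a1, a carrier of branched-chain and other large neutral amino acids, and Slc1a3 were higher, and Slc7a1, the creatine importer Slc6a8, Slc1a1 and Slc38a6 were lower. Slc7a1 changed most, with a drop of 2.50 ± 0.37 (limma, adjusted p = 0.00102). The median was -0.08 over members and 0.02 over all genes. The count was 3 without ESC replicate 1 and 2 without either rsEpiSC E5.75 array, where Slc7a1 and Slc43a1 stayed called. These 3 comparisons of cultured lines share arrays pairwise and are not independent of one another.

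**Figure D2:**
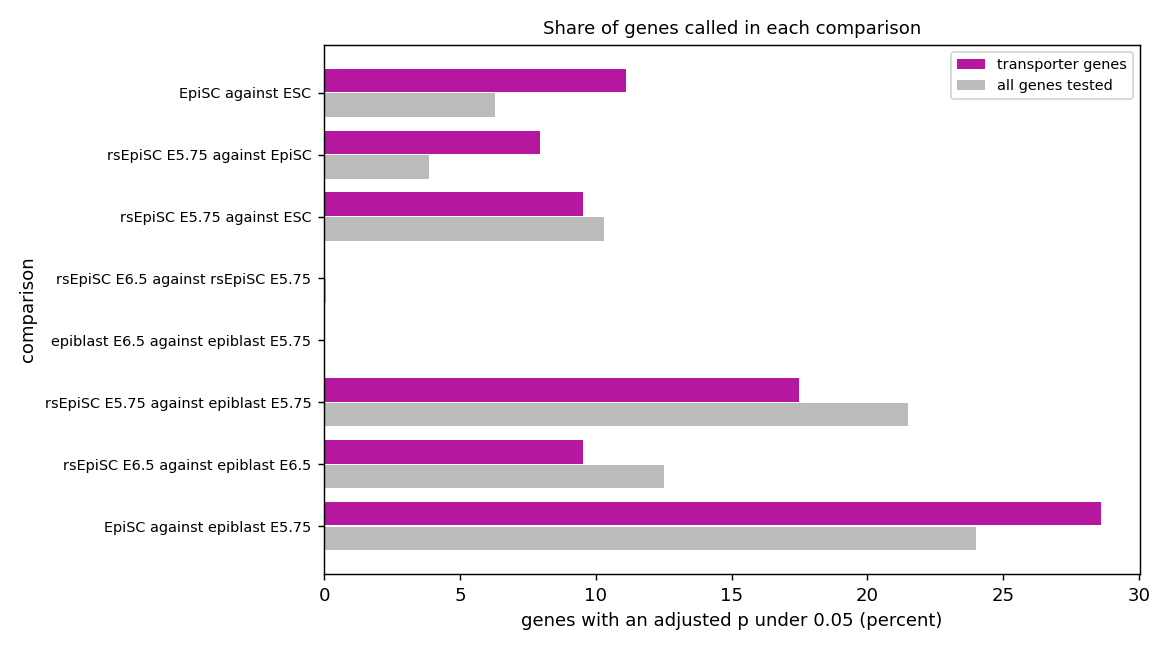
Bars show the percent of the 63 transporter genes (purple) and of all 22180 genes (grey) with an adjusted p under 0.05 in each of the 8 pairwise comparisons. The members' share runs from 0 in both stage comparisons to 28.6% in EpiSC against epiblast E5.75, where 24% of all genes were called.

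Setting the lines against the epiblast of the same day asks how far culture keeps the transporter levels of the tissue. EpiSC had 18 called members (28.6%), against 24% of all genes: 16 were higher than in epiblast E5.75, where 12.6% of all genes were higher and 11.4% lower, and Slc7a12 and Slc43a3 were lower. The largest of the higher members were the leucine carrier Slc7a5 (2.69 ± 0.26, limma adjusted p = 6.44e-05), the glutamine importer Slc1a5 (2.67 ± 0.66, adjusted p = 0.0133, but 1.57 and not called without epiblast E5.75 replicate 1) and the heavy chain Slc3a2 (2.46 ± 0.27, adjusted p = 0.000138). The lysosomal glutamine exporter Slc38a7, Slc7a11 and Slc6a8 each exceeded a difference of 2 as well. The members' median difference was 0.01, against -0.19 for all genes. Leaving out EpiSC replicate 1 gave 9 calls, EpiSC replicate 2 gave 11, epiblast E5.75 replicate 1 gave 11 and epiblast E5.75 replicate 2 gave 19. Fitting these 4 arrays alone left 10 calls.

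The rsEpiSC E5.75 line had 11 called members against the same tissue arrays (17.5%), and 21.5% of all genes were called, 11.5% higher and 10% lower. The taurine importer Slc6a6, Slc7a5, Slc3a2, the exchanger Slc7a6, Slc43a1, the glutamine carrier Slc38a3 and the alanine, serine and cysteine exchanger Slc1a4 were higher. Slc7a7, Slc7a12, Slc1a3 and Slc6a19os were lower. The count was 4 without rsEpiSC E5.75 replicate 1, 6 without its replicate 2, 6 without epiblast E5.75 replicate 1 and 12 without epiblast E5.75 replicate 2. In rsEpiSC E6.5 against epiblast E6.5, 6 members were called (9.52%), against 12.5% of all genes (6.72% higher and 5.78% lower). Slc7a5, Slc1a4, Slc7a11, Slc7a1 and Slc3a2 were higher and Slc6a15 was lower. The count was 2 without rsEpiSC E6.5 replicate 1, where Slc7a5 and Slc3a2 stayed called.

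The median of the gene differences from tissue was negative, so the directions were read after quantile normalization as well. That moved the median difference of all genes from -0.16 to -0.03 in rsEpiSC E5.75, from -0.10 to -0.02 in rsEpiSC E6.5 and from -0.19 to -0.05 in EpiSC. The members then split into 12 higher and 1 lower in EpiSC, 6 higher and 2 lower in rsEpiSC E5.75, and 5 higher with no lower call in rsEpiSC E6.5. Slc3a2 and Slc7a5 were called higher in all 3 comparisons with tissue, as deposited and under each of the alternatives tried. Under quantile normalization the dim genes Slc7a12 and Slc6a19os lost their calls, as did Slc6a15 in both comparisons where it was called against tissue. So did Slc1a4 in rsEpiSC E5.75 and Slc7a1, Slc7a6 and Slc38a10 in EpiSC. Among the cultured lines, Slc1a3, Slc6a15, Slc7a4 and Slc38a6 lost their calls in rsEpiSC E5.75 against EpiSC. Slc7a11 and Slc43a3 lost theirs in EpiSC against ESC, and Slc1a3 in rsEpiSC E5.75 against ESC.

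**Figure D3:**
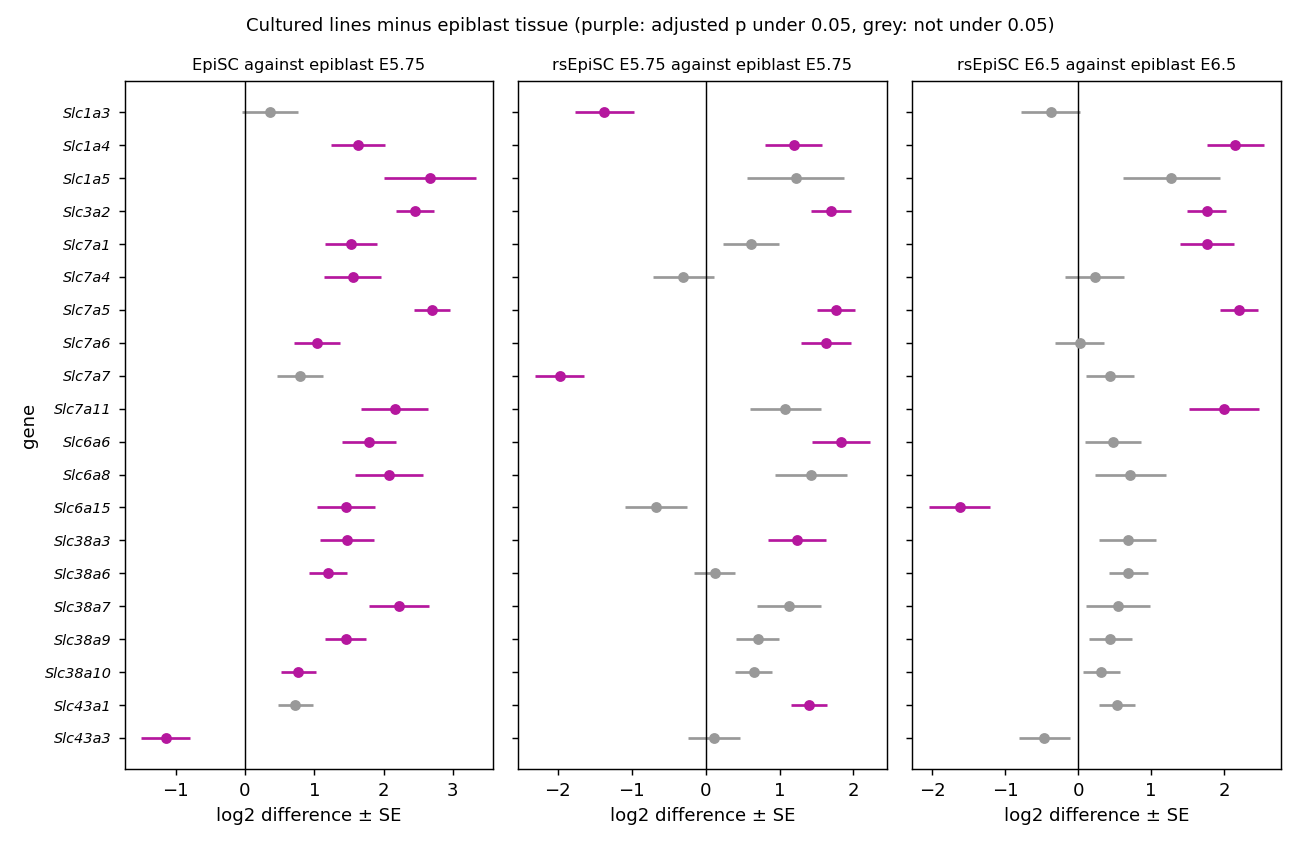
Points show the log2 difference of a cultured line from epiblast, with the SE as bars, for the 20 members above the dim-signal bound that were called in at least 1 of the 3 comparisons. Purple points have an adjusted p under 0.05, and Slc3a2 and Slc7a5 are purple and right of 0 in all panels.

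Between stages, no member was called: 0 of 63 between rsEpiSC E6.5 and rsEpiSC E5.75, where 0.0857% of all genes were called, and 0 of 63 between epiblast E6.5 and epiblast E5.75, where 0.0225% were. At an unadjusted limma p under 0.05 there were 7 and 10 members (11.1% and 15.9%), against 4.66% and 12.7% of all genes. The member nearest to a call was Slc7a7, higher in rsEpiSC E6.5 by 1.99 ± 0.33 (unadjusted p = 5.99e-05, adjusted p = 0.0578), a difference that passed in 4 of 14 alternatives, with adjusted p from 0.00107 to 0.605. In tissue Slc7a7 differed by -0.42 ± 0.33 in the opposite direction (adjusted p = 0.635). The test of whether the stage difference itself was unlike in rsEpiSC and tissue gave 0 calls among members, against 0.00902% of all genes, and 6 members (9.52%) at an unadjusted limma p under 0.05, against 8.65% of all genes. For Slc7a7 that test gave 2.42 ± 0.47 (adjusted p = 0.141, and 0.0706 to 0.573 over 17 alternatives).

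Slc3a2 is the shared heavy chain without which its Slc7a partners do not reach the surface. Its signals were 9.83 and 9.95 in ESC, 10.19 and 9.63 in EpiSC, 8.94 and 9.37 in rsEpiSC E5.75, 7.53 and 7.37 in epiblast E5.75, 9.69 and 9.10 in rsEpiSC E6.5, and 7.79 and 7.48 in epiblast E6.5. All 8 cultured arrays lay above all 4 tissue arrays, by more than 1 between the nearest. Against tissue of the same day the difference was 1.70 ± 0.27 in rsEpiSC E5.75 (limma, adjusted p = 0.00159) and 1.76 ± 0.27 in rsEpiSC E6.5 (adjusted p = 0.00234). None of the 4 comparisons run among cultured groups called Slc3a2.

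Slc7a5 pairs with Slc3a2 to form LAT1, the main importer of leucine in dividing cells. Its signals were 10.70 and 10.23 in ESC, 11.40 and 10.91 in EpiSC, 9.93 and 10.51 in rsEpiSC E5.75, 8.22 and 8.70 in epiblast E5.75, 10.67 and 10.47 in rsEpiSC E6.5, and 8.41 and 8.33 in epiblast E6.5. Here too the lowest cultured array was above the highest tissue array. The difference from tissue was 1.76 ± 0.26 in rsEpiSC E5.75 (limma, adjusted p = 0.00102) and 2.20 ± 0.26 in rsEpiSC E6.5 (adjusted p = 0.000523).

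**Figure D4:**
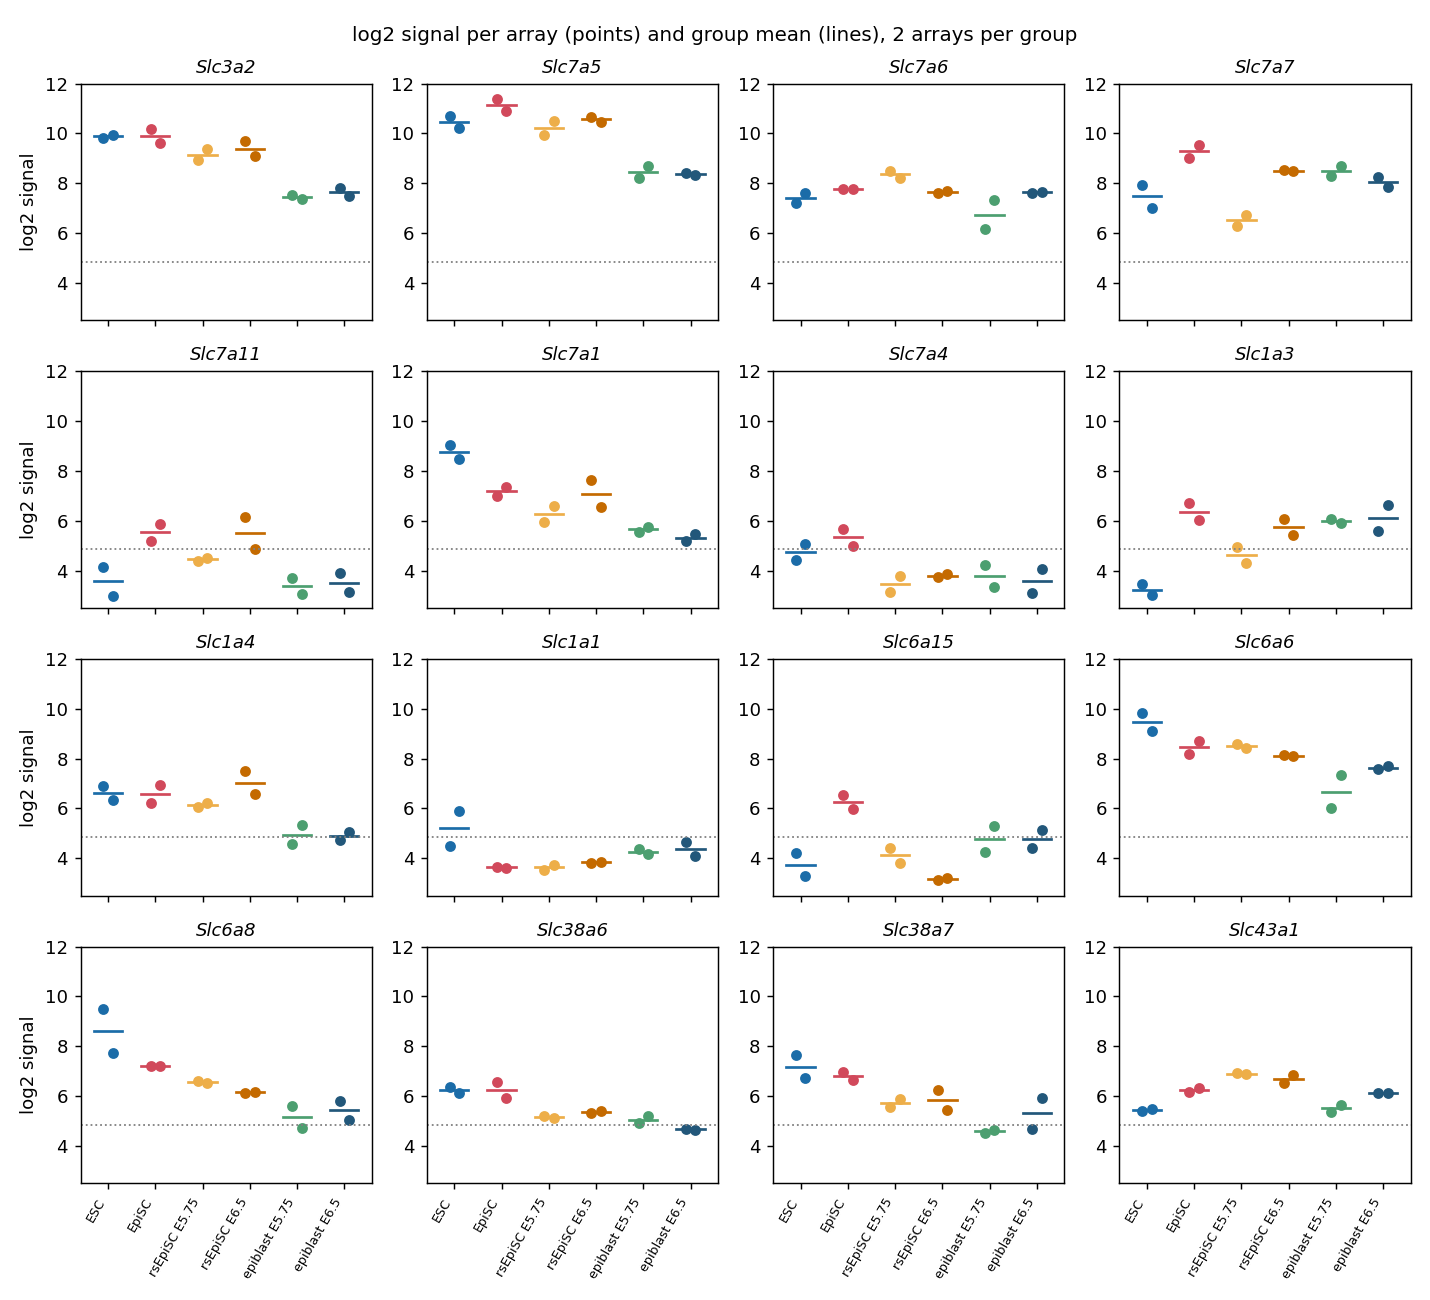
Points are the log2 signals of single arrays and lines are group means (2 arrays per group) for 16 of the members called in at least 1 comparison. The dotted line is the dim-signal bound of 4.85. Slc7a7 is lowest in rsEpiSC E5.75, Slc7a1 and Slc6a8 are highest in ESC, and Slc3a2 and Slc7a5 are lowest in both epiblast groups.

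Slc7a7 and Slc7a6 also pair with Slc3a2, and their complexes export cationic amino acids in exchange for neutral ones and sodium. Slc7a7 read 7.93 and 7.02 in ESC, 9.03 and 9.53 in EpiSC, 6.30 and 6.72 in rsEpiSC E5.75, 8.28 and 8.69 in epiblast E5.75, 8.53 and 8.47 in rsEpiSC E6.5, and 8.26 and 7.85 in epiblast E6.5. Both rsEpiSC E5.75 arrays were below all 10 other arrays, and both EpiSC arrays were above all 10 of the rest. Its rise of 1.81 ± 0.33 in EpiSC over ESC (limma, adjusted p = 0.0057) was not called without EpiSC replicate 2, where it was 1.55. It was also lost in a fit of the EpiSC and ESC arrays alone (limma, adjusted p = 0.081). The drops of Slc7a7 in rsEpiSC E5.75 against EpiSC and against tissue (by 1.97 ± 0.33, limma, adjusted p = 0.00206) held under every alternative run.

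Slc7a6, its close relative, differed from tissue in the opposite direction in rsEpiSC E5.75. Its signals were 7.20 and 7.60 in ESC, 7.78 and 7.76 in EpiSC, 8.50 and 8.22 in rsEpiSC E5.75, 6.16 and 7.31 in epiblast E5.75, 7.63 and 7.68 in rsEpiSC E6.5, and 7.61 and 7.65 in epiblast E6.5. rsEpiSC E5.75 was highest on both arrays, and epiblast E5.75 replicate 1 lay more than 1 below its partner. The line exceeded tissue by 1.63 ± 0.33 (limma, adjusted p = 0.0062), a call lost without rsEpiSC E5.75 replicate 1 (adjusted p = 0.0617), and EpiSC exceeded it by 1.03 ± 0.33 (adjusted p = 0.042), which was lost in 7 of 13 alternatives. Without epiblast E5.75 replicate 1 these differences were 1.05 and 0.46, and without its replicate 2 that of EpiSC was 1.61. Without epiblast E5.75 replicate 2, Slc7a6 was called higher in epiblast E6.5 than in epiblast E5.75, by 1.47 (adjusted p = 0.047).

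Slc7a11 pairs with Slc3a2 as the cystine and glutamate exchanger that feeds glutathione synthesis. It read 4.16 and 2.97 in ESC, 5.18 and 5.88 in EpiSC, 4.40 and 4.50 in rsEpiSC E5.75, 3.70 and 3.05 in epiblast E5.75, 6.15 and 4.88 in rsEpiSC E6.5, and 3.89 and 3.15 in epiblast E6.5. Only the EpiSC and rsEpiSC E6.5 arrays passed the dim-signal bound. EpiSC was higher by 1.97 ± 0.48 against ESC (limma, adjusted p = 0.0296) and by 2.16 ± 0.48 against epiblast E5.75 (adjusted p = 0.00803), and rsEpiSC E6.5 by 2.00 ± 0.48 against epiblast E6.5 (adjusted p = 0.0204). The second probe set of Slc7a11 gave 4.16 and 5.97 in EpiSC, 6.66 and 5.01 in rsEpiSC E6.5, 3.86 and 2.40 in ESC and 2.83 to 3.30 on the tissue arrays, so the groups stood in a like order. The difference from ESC was lost without ESC replicate 2 (1.37, adjusted p = 0.228) and without either EpiSC array (lowest adjusted p = 0.0581), that of EpiSC from tissue without EpiSC replicate 2 (adjusted p = 0.0641), and that of rsEpiSC E6.5 without its replicate 1 or epiblast E6.5 replicate 2.

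The remaining light chains were dim or flat. Slc7a12, which has been described as a partner of an unknown heavy chain, was 1.66 to 2.46 on cultured arrays and 2.29 to 3.60 on tissue arrays, all far under the bound. It was lower than in epiblast E5.75 by 1.43 ± 0.31 in rsEpiSC E5.75 (limma, adjusted p = 0.00759) and by 1.17 ± 0.31 in EpiSC (adjusted p = 0.0177), in the direction in which olfactory receptor genes also differ. The former was lost without either rsEpiSC E5.75 array and the latter without EpiSC replicate 2, and both without epiblast E5.75 replicate 1. Slc7a10, a carrier of small neutral amino acids in brain, was 4.50 to 5.25 and Slc7a8, a large neutral amino acid exchanger, 3.43 to 5.33, with no call. Slc7a9, Slc7a13 and Slc7a15 stayed between 2.72 and 4.81.

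The RefSeq table used here (GRCm38.p6, from 250 bases before to 50 after a start) has no promoter for 17 members. Among these are the called genes Slc1a5, Slc6a6, Slc6a8, Slc6a15, Slc7a4, Slc7a5, Slc7a12, Slc38a3 and Slc43a3. It holds promoters of the other 46 members. They were searched on both strands for TGATGNAAN, the letters of a site type that Atf4 is known to bind with a C/EBP partner. The motif was in promoters of 4 of these 46 genes (8.7%), namely Slc7a11, Slc1a4, Slc7a7 and Slc6a21, against 4.5% of 27025 genes in the table and 7 of 20 listed Atf4 target genes (35.0%). Printed here are 3 of the promoters with a match, since these genes were called, and that of Slc3a2, called in the same comparisons as Slc7a5 and holding no match. Capitals mark the matching bases, and each is the minus strand read 5′ to 3′. The Slc7a11 window is chr3:50443564-50443863, with 2 matches on opposite strands. The Slc1a4 window is chr11:20332664-20332963, with 1 match on the opposite strand of the gene. That of Slc7a7 is chr14:54417895-54418194, with 2 matches. It is 1 of 5 windows of this gene in the table, of which 3 hold no match. The remaining window, chr14:54417653-54417952, overlaps the printed one, and its 1 match is the same site as the second match printed. The Slc3a2 window is chr19:8713848-8714147.
Slc7a11: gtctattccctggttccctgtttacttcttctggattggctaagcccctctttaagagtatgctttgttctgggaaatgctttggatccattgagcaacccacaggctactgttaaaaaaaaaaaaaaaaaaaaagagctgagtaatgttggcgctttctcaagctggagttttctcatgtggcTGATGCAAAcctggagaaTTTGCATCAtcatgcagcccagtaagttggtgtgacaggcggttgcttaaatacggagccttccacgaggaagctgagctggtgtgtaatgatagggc
Slc1a4: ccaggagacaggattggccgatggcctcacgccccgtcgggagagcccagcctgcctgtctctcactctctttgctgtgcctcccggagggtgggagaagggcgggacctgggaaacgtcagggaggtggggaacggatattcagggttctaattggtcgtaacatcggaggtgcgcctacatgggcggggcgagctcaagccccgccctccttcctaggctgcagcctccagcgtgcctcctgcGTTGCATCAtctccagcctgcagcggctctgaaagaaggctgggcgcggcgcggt
Slc7a7: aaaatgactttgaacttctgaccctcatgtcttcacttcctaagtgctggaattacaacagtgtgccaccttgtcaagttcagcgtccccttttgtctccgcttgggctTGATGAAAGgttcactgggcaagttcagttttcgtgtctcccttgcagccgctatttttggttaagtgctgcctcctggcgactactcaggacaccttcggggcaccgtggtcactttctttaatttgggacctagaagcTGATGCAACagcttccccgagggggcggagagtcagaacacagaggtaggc
Slc3a2: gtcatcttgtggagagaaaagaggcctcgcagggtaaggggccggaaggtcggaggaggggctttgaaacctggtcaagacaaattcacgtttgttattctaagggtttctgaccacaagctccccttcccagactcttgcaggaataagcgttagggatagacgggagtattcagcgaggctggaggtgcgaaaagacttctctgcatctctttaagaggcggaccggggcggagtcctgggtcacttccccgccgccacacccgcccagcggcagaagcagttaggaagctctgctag
A match is a run of letters and not a measured site. Slc7a11 and Slc1a4 were both higher than tissue in EpiSC and rsEpiSC E6.5, while Slc7a7 was lower than tissue in rsEpiSC E5.75 and not called in the other lines.

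Among the cationic carriers, Slc7a1 imports arginine, lysine and ornithine in most dividing cells. Its signals were 9.03 and 8.49 in ESC, 7.01 and 7.34 in EpiSC, 5.93 and 6.60 in rsEpiSC E5.75, 5.56 and 5.75 in epiblast E5.75, 7.63 and 6.56 in rsEpiSC E6.5, and 5.19 and 5.47 in epiblast E6.5. ESC stood above all other arrays and tissue below all cultured ones. Slc7a1 fell by 1.58 ± 0.37 in EpiSC against ESC (limma, adjusted p = 0.0248), a call lost without ESC replicate 1 and without either EpiSC array (adjusted p up to 0.157). It exceeded tissue by 1.52 ± 0.37 in EpiSC (adjusted p = 0.0127) and by 1.77 ± 0.37 in rsEpiSC E6.5 (adjusted p = 0.0114), and by 0.61 ± 0.37 in rsEpiSC E5.75, which was not called (adjusted p = 0.253). The call in EpiSC was lost without EpiSC replicate 2 or epiblast E5.75 replicate 1, and that in rsEpiSC E6.5 without its replicate 1 or epiblast E6.5 replicate 1.

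Slc7a3, a second arginine importer, was bright in every group but varied widely between replicates. It read 9.72 and 7.53 in ESC, 9.63 and 10.05 in EpiSC, 7.39 and 8.41 in rsEpiSC E5.75, 8.68 and 8.99 in epiblast E5.75, 9.64 and 8.53 in rsEpiSC E6.5, and 8.81 and 8.51 in epiblast E6.5. No comparison of Slc7a3 was called, and the gap between the ESC arrays was larger than most differences between groups. Slc7a4 read 5.66 and 5.0 in EpiSC, 3.16 and 3.80 in rsEpiSC E5.75, 4.42 and 5.06 in ESC, 3.74 and 3.86 in rsEpiSC E6.5, and 3.09 to 4.23 in tissue, so that EpiSC and 1 ESC array passed the dim-signal bound. EpiSC was above epiblast E5.75 by 1.55 ± 0.41 (limma, adjusted p = 0.0182; lost without EpiSC replicate 1 or epiblast E5.75 replicate 2). Slc7a2 (3.22 to 4.26) and Slc7a14 (3.57 to 4.65) were dim.

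Of the glutamate carriers, Slc1a3 read 3.45 and 3.02 in ESC, 6.72 and 6.01 in EpiSC, 4.97 and 4.30 in rsEpiSC E5.75, 6.09 and 5.92 in epiblast E5.75, 6.09 and 5.42 in rsEpiSC E6.5, and 5.61 and 6.65 in epiblast E6.5. ESC was lowest, at the level of dim genes, and rsEpiSC E5.75 came next. The rise in EpiSC over ESC was called under all alternatives tried, from 2.78 to 3.49. rsEpiSC E5.75 lay 1.40 ± 0.40 above ESC (limma, adjusted p = 0.0458) and 1.37 ± 0.40 below epiblast E5.75 (adjusted p = 0.0316), and each of these calls was lost when any 1 of the 4 arrays compared was left out. Its drop against EpiSC was lost without EpiSC replicate 1 and without either rsEpiSC E5.75 array.

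Slc1a1, the neuronal and epithelial importer of glutamate and cysteine, read 4.50 and 5.89 in ESC, 3.65 and 3.60 in EpiSC, 3.54 and 3.75 in rsEpiSC E5.75, 4.35 and 4.16 in epiblast E5.75, 3.82 and 3.85 in rsEpiSC E6.5, and 4.64 and 4.10 in epiblast E6.5. It passed the bound through ESC replicate 2 alone. Against ESC it was lower by 1.57 ± 0.37 in EpiSC (limma, adjusted p = 0.0254) and by 1.56 ± 0.37 in rsEpiSC E5.75 (adjusted p = 0.0185). Without ESC replicate 2 the differences were -0.87 and -0.86 and neither was called, and the calls were also lost without either array of the line compared. Slc1a6 (3.82 to 5.82), Slc1a7 (4.39 to 4.94) and Slc1a2 (3.16 to 3.90), glutamate carriers of nervous tissue, had no call.

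Slc1a4 and Slc1a5 exchange small neutral amino acids, Slc1a5 with glutamine as its main cargo. Slc1a4 read 6.88 and 6.34 in ESC, 6.22 and 6.94 in EpiSC, 6.06 and 6.22 in rsEpiSC E5.75, 4.56 and 5.33 in epiblast E5.75, 7.49 and 6.58 in rsEpiSC E6.5, and 4.72 and 5.04 in epiblast E6.5. Every cultured array was above every tissue array. The difference from tissue was 1.64 ± 0.39 in EpiSC (limma, adjusted p = 0.0109), 1.19 ± 0.39 in rsEpiSC E5.75 (adjusted p = 0.0466) and 2.16 ± 0.39 in rsEpiSC E6.5 (adjusted p = 0.0051). The smallest of the 3 was lost in 8 of 13 alternatives, quantile normalization among them, that in EpiSC without EpiSC replicate 2 or epiblast E5.75 replicate 1, and that in rsEpiSC E6.5 without its replicate 1.

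Slc1a5 read 9.48 and 7.90 in ESC, 9.58 and 9.16 in EpiSC, 7.34 and 8.49 in rsEpiSC E5.75, 5.60 and 7.80 in epiblast E5.75, 8.97 and 8.39 in rsEpiSC E6.5, and 7.67 and 7.14 in epiblast E6.5. The epiblast E5.75 arrays differed from each other by more than 2, and 1 of them lay within the range of cultured arrays. EpiSC was above epiblast E5.75 by 2.67 (SE 0.66), a call lost without EpiSC replicate 1 or epiblast E5.75 replicate 1 (1.57 without the latter; limma, adjusted p up to 0.108), and the rsEpiSC lines were above tissue of their day by 1.22 at E5.75 and 1.28 at E6.5, which was not called. The second Slc1a5 probe set separated culture and tissue more cleanly, with 8.27 to 9.56 on cultured and 5.63 to 6.67 on tissue arrays. Its means were 8.47 in rsEpiSC E5.75 and 6.03 in epiblast E5.75, and 9.03 in rsEpiSC E6.5 and 6.27 in epiblast E6.5. The differences of the rsEpiSC lines from tissue were thus larger with this probe set.

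Slc6a6 and Slc6a8 are the carriers of taurine and creatine. Slc6a6 read 9.83 and 9.10 in ESC, 8.19 and 8.72 in EpiSC, 8.60 and 8.41 in rsEpiSC E5.75, 6.01 and 7.34 in epiblast E5.75, 8.13 and 8.10 in rsEpiSC E6.5, and 7.58 and 7.69 in epiblast E6.5. ESC was highest and tissue lowest with no overlap, and epiblast E5.75 replicate 1 was apart from its partner. The difference from epiblast E5.75 was 1.78 ± 0.39 in EpiSC (limma, adjusted p = 0.0071) and 1.83 ± 0.39 in rsEpiSC E5.75 (adjusted p = 0.00721), lost without EpiSC replicate 2 in the former and without rsEpiSC E5.75 replicate 1 in the latter. Without epiblast E5.75 replicate 1 they were 1.12 and 1.17, both still called. At day 6.5 the difference was 0.48 ± 0.39, which was not called (adjusted p = 0.45), and the change in stage difference was not called either (-1.35 ± 0.55, adjusted p = 0.531).

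Slc6a8 read 9.50 and 7.74 in ESC, 7.22 and 7.22 in EpiSC, 6.61 and 6.51 in rsEpiSC E5.75, 5.58 and 4.70 in epiblast E5.75, 6.12 and 6.17 in rsEpiSC E6.5, and 5.81 and 5.05 in epiblast E6.5. The groups followed one another from ESC through EpiSC and rsEpiSC to tissue, with no overlap, though neighbours in that order that were compared were not called apart. It was 2.06 ± 0.49 lower in rsEpiSC E5.75 than in ESC (limma, adjusted p = 0.0176), lost without ESC replicate 1 (-1.18) and without either rsEpiSC E5.75 array. EpiSC was 2.08 ± 0.49 above epiblast E5.75 (adjusted p = 0.0102), lost without EpiSC replicate 1 or epiblast E5.75 replicate 2.

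Slc6a15 is known mainly from neurons. It read 4.21 and 3.29 in ESC, 6.54 and 5.96 in EpiSC, 4.40 and 3.82 in rsEpiSC E5.75, 4.26 and 5.31 in epiblast E5.75, 3.13 and 3.19 in rsEpiSC E6.5, and 4.42 and 5.15 in epiblast E6.5. Both EpiSC arrays were above all others, and rsEpiSC E6.5 was lowest. The neural markers were highest in the rsEpiSC lines, and whether they bear on the signal of Slc6a15 was not tested. Against tissue it was 1.46 ± 0.42 higher in EpiSC (limma, adjusted p = 0.0257) and 1.62 ± 0.42 lower in rsEpiSC E6.5 (adjusted p = 0.0275). The former was lost without EpiSC replicate 1 or epiblast E5.75 replicate 1 (0.94 without the tissue array), and the latter without either rsEpiSC E6.5 array or epiblast E6.5 replicate 2. Its drop in rsEpiSC E5.75 against EpiSC was lost without EpiSC replicate 1 or rsEpiSC E5.75 replicate 2, and its rise in EpiSC over ESC was kept throughout. Slc6a20a, an importer of proline, stayed at 4.27 to 5.23 with no call. Among the dim genes of the family, the GABA carrier Slc6a11 was called by the F test alone (adjusted p = 0.0331), with 4.62 and 4.57 in epiblast E6.5 and 3.51 to 4.30 on other arrays. The GABA and betaine carriers Slc6a12 and Slc6a13 stayed at 3.32 to 4.98, the monoamine carriers Slc6a2, Slc6a3 and Slc6a4 at 3.23 to 4.57, the glycine and proline carriers Slc6a5 and Slc6a7 at 3.34 to 4.87, and Slc6a14, Slc6a16, Slc6a17, Slc6a18, Slc6a19, Slc6a20b and Slc6a21 at 2.70 to 4.51.

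The Slc38a family holds carriers of even signal and others that were higher in EpiSC than in tissue. Slc38a1 (8.74 to 9.30) and Slc38a2 (8.06 to 9.64), the main sodium-coupled glutamine and alanine importers of the cell surface, were not called anywhere. Slc38a7 read 7.63 and 6.71 in ESC, 6.98 and 6.64 in EpiSC, 5.55 and 5.87 in rsEpiSC E5.75, 4.54 and 4.63 in epiblast E5.75, 6.26 and 5.44 in rsEpiSC E6.5, and 4.68 and 5.92 in epiblast E6.5. Both ESC and EpiSC lay above all rsEpiSC and tissue arrays. Slc38a7 exceeded epiblast E5.75 by 2.22 ± 0.43 in EpiSC (limma, adjusted p = 0.004) under all alternatives run, and by 1.13 ± 0.43 in rsEpiSC E5.75, which was not called (adjusted p = 0.0837).

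Slc38a9, the lysosomal protein that reports arginine to mTORC1, read 6.26 and 6.66 in ESC, 7.01 and 6.84 in EpiSC, 6.21 and 6.14 in rsEpiSC E5.75, 5.52 and 5.42 in epiblast E5.75, 6.19 and 6.31 in rsEpiSC E6.5, and 6.19 and 5.42 in epiblast E6.5. EpiSC was highest and 3 of the 4 tissue arrays were lowest. The difference of EpiSC from epiblast E5.75, 1.45 ± 0.29 (limma, adjusted p = 0.00482), was kept in all alternatives.

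Slc38a6 read 6.35 and 6.11 in ESC, 6.57 and 5.92 in EpiSC, 5.20 and 5.14 in rsEpiSC E5.75, 4.90 and 5.19 in epiblast E5.75, 5.30 and 5.40 in rsEpiSC E6.5, and 4.67 and 4.65 in epiblast E6.5. ESC and EpiSC formed an upper group and rsEpiSC and tissue a lower one, with no overlap. In rsEpiSC E5.75 it was 1.06 ± 0.27 lower than in ESC (limma, adjusted p = 0.0267; lost without any 1 of the 4 arrays) and 1.08 ± 0.27 lower than in EpiSC (adjusted p = 0.0499; lost without 3 of the 4, all but EpiSC replicate 2). EpiSC was 1.20 ± 0.27 above epiblast E5.75 (adjusted p = 0.00887; lost without EpiSC replicate 1).

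Slc38a3, a glutamine carrier prominent in liver and brain, read 4.39 and 5.21 in ESC, 6.32 and 4.97 in EpiSC, 5.44 and 5.37 in rsEpiSC E5.75, 4.14 to 4.54 in tissue, and 5.14 and 5.02 in rsEpiSC E6.5. The EpiSC arrays were more than 1 apart. Against epiblast E5.75 it was 1.47 ± 0.39 higher in EpiSC (limma, adjusted p = 0.019) and 1.23 ± 0.39 higher in rsEpiSC E5.75 (adjusted p = 0.0433). The former was lost without EpiSC replicate 1 (0.80) or either epiblast array, and the latter without any 1 of the 4 arrays. Slc38a10, at 5.91 to 6.15 in the first 3 cultured groups and 5.33 and 5.37 in epiblast E5.75, was 0.77 ± 0.26 higher in EpiSC (adjusted p = 0.0465), lost in 10 of 13 alternatives, among them each that left out an array. Slc38a5, Slc38a8 and Slc38a11 were dim, with no array above 4.69. In Slc36a, the proton-coupled carriers of endosomes and lysosomes, Slc36a4 was bright and even at 9.30 to 10.08 and Slc36a1 stayed at 5.20 to 6.19, neither with a call, while Slc36a2 and Slc36a3 were dim at 2.78 to 4.93.

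All 3 Slc43a genes had a group mean above the dim-signal bound, though not in every group. Slc43a1 read 5.39 and 5.46 in ESC, 6.14 and 6.32 in EpiSC, 6.91 and 6.89 in rsEpiSC E5.75, 5.37 and 5.63 in epiblast E5.75, 6.51 and 6.83 in rsEpiSC E6.5, and 6.14 and 6.14 in epiblast E6.5. The 4 rsEpiSC arrays were above all others. rsEpiSC E5.75 exceeded ESC by 1.47 ± 0.25 (limma, adjusted p = 0.00221) and epiblast E5.75 by 1.40 ± 0.25 (adjusted p = 0.00282), both in all alternatives run.

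Slc43a3 read 5.92 and 5.32 in ESC, 4.14 and 4.33 in EpiSC, 5.08 and 5.91 in rsEpiSC E5.75, 5.65 and 5.11 in epiblast E5.75, 5.13 and 5.73 in rsEpiSC E6.5, and 5.94 and 5.84 in epiblast E6.5. EpiSC was below every other array, and both EpiSC arrays were under the dim-signal bound. The drop was 1.39 ± 0.35 against ESC (limma, adjusted p = 0.0348) and 1.15 ± 0.35 against epiblast E5.75 (adjusted p = 0.0339). Both were lost without either EpiSC array, the first also without ESC replicate 1 and the second also without epiblast E5.75 replicate 1. Slc43a2, a large neutral amino acid carrier, stayed at 4.49 to 5.53. Of the opposite-strand genes, Slc7a6os was even at 7.17 to 8.24, Slc36a1os was dim, and Slc6a19os, dim at 2.94 to 4.14, was 0.83 ± 0.25 lower in rsEpiSC E5.75 than in epiblast E5.75 (adjusted p = 0.0324; lost without either rsEpiSC E5.75 array or epiblast E5.75 replicate 1).

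The genes known to answer to amino acid shortage through Atf4 were counted beside the members, from a list of 21 of which 20 were measured. They were called higher than tissue in 16 of 20 cases in EpiSC, where 12.6% of all genes were, with a median difference of 1.85. Against tissue of their own day, 7 of 20 were called higher in rsEpiSC E5.75 (median 0.97; 11.5% of all genes) and 12 of 20 in rsEpiSC E6.5 (median 1.43; 6.72% of all genes). Ddit4, an inhibitor of mTORC1, was 3.61 above tissue in EpiSC, 3.62 in the E5.75 line and 3.81 in the E6.5 line. In rsEpiSC E5.75 against EpiSC, where 2.31% of all genes were lower, so were the 4 called genes of the list: Cth, which makes cysteine, by 3.04, Trib3 by 2.44, Ddit3 by 2.32 and Cebpb by 1.79. Without rsEpiSC E5.75 replicate 1, whose Cth signal was 5.36 against 7.86 in replicate 2, the drop of Cth was 1.79, and without EpiSC replicate 1 that of Ddit3 was 1.19, neither of them called. The counts against tissue ran from 10 to 18, 4 to 8 and 5 to 14 over the alternatives, lowest without EpiSC replicate 1, epiblast E5.75 replicate 1 and rsEpiSC E6.5 replicate 1. The 4 calls against EpiSC were lost without EpiSC replicate 1, and without rsEpiSC E5.75 replicate 1 the count against ESC was 2. Against ESC, rsEpiSC E5.75 had 1 higher and 6 lower (35% called, against 10.3% of all genes), led by Nupr1 (-3.80) and Cth (-3.40, but -2.15 without rsEpiSC E5.75 replicate 1), and EpiSC had 1 higher and 1 lower.

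Of the 27 measured genes listed for relaying amino acid levels to mTORC1, 9 were higher and 2 lower in EpiSC than in epiblast E5.75. Against tissue of their day, 9 were higher in rsEpiSC E5.75 (Lamtor1, a lysosomal anchor, by 2.25, and Sesn3 by 1.73). In rsEpiSC E6.5, 3 were higher and 1 lower. That is 40.7%, 33.3% and 14.8% of the list, against 24%, 21.5% and 12.5% of all genes, so the last share was near that of all genes. These counts dropped to 4 in a fit of the EpiSC and tissue arrays alone, to 3 without rsEpiSC E5.75 replicate 1, and to no call without rsEpiSC E6.5 replicate 1. Of 18 measured genes of threonine, serine, glutamine, cystine and glutathione use, 8 were higher and 2 lower, 5 and 2, and 3 and 1 in the same comparisons (55.6%, 38.9% and 22.2% of the list, to be read against the same shares of all genes), with totals as low as 4 without EpiSC replicate 1, 1 without rsEpiSC E5.75 replicate 1 and 1 without rsEpiSC E6.5 replicate 1. Against EpiSC, rsEpiSC E5.75 had less Gclm (-1.88), a subunit of the enzyme that starts glutathione synthesis, and less Bcat2 (-1.25), a branched-chain aminotransferase, and more Gldc (1.14), of the glycine cleavage system, all of them lost without rsEpiSC E5.75 replicate 1. Of 22 other amino acid carriers and partners, 6 were called against tissue in EpiSC (27.3%; 2 calls with array weights), 1 in the E6.5 line (4.55%) and 2 in the E5.75 line (9.09%), where 24%, 12.5% and 21.5% of all genes were. In EpiSC against ESC 1 was higher and 2 were lower, and 6.29% of all genes were called. The mitochondrial aspartate and glutamate carrier Slc25a12 was 1.87 lower in rsEpiSC E5.75 than in EpiSC and 2.88 lower than in ESC. Its relative Slc25a13 read 6.38 and 3.11 in rsEpiSC E5.75 and 7.77 and 7.97 in ESC, a difference of -3.13 that was -1.49 and not called (limma, adjusted p = 0.0891) without rsEpiSC E5.75 replicate 2 and -4.76 without its replicate 1. In EpiSC against ESC, Slc16a10, a carrier of aromatic amino acids, was 1.44 higher, Slc25a12 was 1.02 lower and the peptide importer Slc15a1 was 2.13 lower, or 1.37 lower and not called without ESC replicate 1. None of these 3 was called with only the arrays compared.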

How the data were processed

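Gene signals of 12 mouse arrays (6 groups of 2) were read from the table of log2 values the authors deposited, which came from RMA in the oligo package, per the submitters' processing notes (versions not given in the sources used here; RMA corrects background, normalizes quantiles and summarizes probes). Arrays have no read depth, and their number limits the precision. The labels' protocol names a human array, whereas the probe identifiers match a mouse table. Of 41345 probe sets, 23521 had 1 symbol, giving 22180 genes by the probe set with the highest mean, and 4 members had 2 probe sets. limma 3.58.1 (R 4.3.3) was fitted on 6 group means with a variance trend (6 residual and 5.99 prior degrees of freedom), and each comparison was adjusted over all genes (Benjamini-Hochberg). The code was tested on simulated data. Samples were grouped by title. In each comparison up to 12 called members were named, and listed genes only where called, up to 4 each. The members, lists and tests were chosen with earlier results of these data known. Alternatives were other scalings, filters, probe set rules, variance settings, a replicate block and leaving out arrays. Figures were drawn with matplotlib 3.10.9.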

Additional observations from a re-analysis of the deposited data

How the results depend on the processing

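Of 704 recalculations of the 53 called differences, 531 kept the call, 173 lost it and 0 changed sign. The absence of a reversal says little. In each called difference the arrays of the compared groups did not overlap, so leaving out 1 array could not change the sign. Several other alternatives, such as the replicate block and the fit without a variance trend, change the SE and not the difference. Calls kept under every alternative were 15, among them Slc3a2 and Slc7a5 in all comparisons with tissue. The count of called members in EpiSC against ESC (7) was 3 with every probe set tested, 4 with array weights, 2 with only the arrays compared, and 3 to 6 with an array left out. That in rsEpiSC E5.75 against EpiSC (5) was 1 after quantile normalization, 1 with every probe set tested, 8 with array weights and 1 to 5 with an array left out, and that in rsEpiSC E5.75 against ESC (6) was 2 with every probe set tested, 3 with only the arrays compared and 2 to 6 with an array left out. Between the rsEpiSC stages (0) the count was 1 after quantile normalization, 1 over genes above the dim-signal bound, 1 with array weights and 1 with only the arrays compared. Between the epiblast stages (0) it was 0 to 1 with an array left out. In rsEpiSC E5.75 against epiblast E5.75 (11) it was 7 with every probe set tested, 7 with array weights and 4 to 12 with an array left out. In rsEpiSC E6.5 against epiblast E6.5 (6) leaving out an array gave 2 to 5, in EpiSC against epiblast E5.75 (18) it gave 9 to 19, with 10 calls from only the arrays compared, and in the F test (20) it gave 14 to 23. Centring the arrays on their medians kept 52 of 53 calls. The causes of these shifts were not tested. An arm reduced to 1 array is assumed to vary like the other groups.

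Over 15 pairs of groups, the deviations of same-numbered arrays from their group means had correlations from -0.26 to 0.0575. The value of -0.26 was that of ESC and EpiSC, where opposite-numbered arrays deviated together to that extent. No pair of groups was above 0.1, so same-numbered arrays showed no common shift. Whether arrays were prepared or run together was not tested. With the number as a replicate block, 48 of 53 calls were kept, and the counts were 6 in EpiSC against ESC, and for the E5.75 line 4 against EpiSC and 6 against ESC. Against tissue they were 10 for that line, 6 for the E6.5 line and 18 for EpiSC.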

Other observations

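Replicates of a group differed by more than 1 on the log2 scale in a few of the 32 members above the dim-signal bound. In ESC these were 5: Slc1a5, Slc6a8, Slc7a3 and Slc7a11 were higher in replicate 1 and Slc1a1 in replicate 2, and 11.4% of all genes above the bound had such a gap. In epiblast E5.75 they were 4, namely Slc1a5, Slc6a6, Slc6a15 and Slc7a6, each higher in replicate 2, where 13.1% of genes had such a gap. In rsEpiSC E6.5 they were 3, Slc7a1, Slc7a3 and Slc7a11, each higher in replicate 1, where 1.6% of genes had such a gap. EpiSC, rsEpiSC E5.75 and epiblast E6.5 had 2 each. The second probe set of Slc36a4 read 2.93 to 4.65, under the dim-signal bound on every array, while the one used read 9.30 to 10.08.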
